A study of Drosophila melanogaster with 2 samples.

Results

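The genes described here code for the replication-independent histones of Drosophila melanogaster: His2Av, His3.3A, His3.3B and His4r. They were taken by name from the Ensembl annotation of assembly dm6, and they are 4 of 13945 protein-coding genes. A peak was given to a gene when its summit lay in the gene body or within 1000 bp of any of its transcription start sites (TSSs), and by this rule the deposited lists hold 29 peaks at these genes. The members were selected by name, with earlier results of these data known, and their peaks by summit position. The peak counts and signals below therefore describe that choice and were not tested.

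The study used anti-GFP chromatin immunoprecipitation and sequencing (ChIP-seq) on whole pupae aged 24 h of a transgenic line that stably produces the product of the fly gene CG9948 with GFP at its C terminus. Chromatin was sheared by sonication. Both samples carry the same transgene and come from the same line; they are biological replicates 1 and 3, and no other genotype, age or treatment is part of the data. The promoter of the transgene was not stated, sex was not collected, and whole animals mix all cell types. A peak in a minority of cells and a weak peak in all of them cannot be told apart.

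Nucleosomes are built mostly from histones made during DNA replication, whose genes lie in a repeated cluster. Replication-independent histones are made throughout the cell cycle from single genes with introns and polyadenylated transcripts, and they replace nucleosomes lost during transcription and other turnover. H3.3, the product of both His3.3A and His3.3B, marks transcribed chromatin. H2Av, from His2Av, does the work of H2A.Z and H2A.X in flies, in transcription, heterochromatin and DNA damage signalling. His4r codes for histone H4 outside the cluster.

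The sequences that carry the peaks differ between the genes, and each is printed on the strand of its histone gene from the RefSeq release 6 genome (dm6 coordinates), with runs of at least 6 A or T in capitals. The strongest summit at these genes lies in intron sequence of His3.3B (chrX:9155245-9155345, minus strand). A second one lies in intron sequence of the same gene, nearer to its first TSS (chrX:9156010-9156110, minus strand). The His2Av stretch (chr3R:26866686-26866775, plus strand) surrounds the summit of its upstream peak, in an intron of the neighbouring gene ball, and ends just before the first exon of ball. The His4r stretches are the DNA between the TSSs of His4r and put (chr3R:14625704-14625754, plus strand) and the summit of the strong peak farther upstream (chr3R:14624188-14624288, plus strand). The last pair are weak summits in coding exons of His3.3A (chr2L:5055622-5055722, plus strand) and His2Av (chr3R:26867671-26867771, plus strand).
His3.3B intron, strongest peak: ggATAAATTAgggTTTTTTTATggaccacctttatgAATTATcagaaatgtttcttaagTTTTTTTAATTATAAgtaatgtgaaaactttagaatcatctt
His3.3B intron, weaker peak: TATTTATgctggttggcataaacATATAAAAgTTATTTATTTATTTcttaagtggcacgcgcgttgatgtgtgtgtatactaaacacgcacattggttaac
His2Av upstream peak: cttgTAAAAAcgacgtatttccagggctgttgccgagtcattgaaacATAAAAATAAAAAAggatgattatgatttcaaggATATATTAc
His4r upstream peak in put: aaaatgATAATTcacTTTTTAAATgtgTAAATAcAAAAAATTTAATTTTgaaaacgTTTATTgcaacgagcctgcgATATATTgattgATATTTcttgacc
His4r promoter, between the TSSs: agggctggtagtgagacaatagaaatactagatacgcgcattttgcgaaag
His3.3A coding exon: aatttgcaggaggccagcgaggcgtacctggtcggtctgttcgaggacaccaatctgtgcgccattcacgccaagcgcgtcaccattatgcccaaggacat
His2Av coding exon: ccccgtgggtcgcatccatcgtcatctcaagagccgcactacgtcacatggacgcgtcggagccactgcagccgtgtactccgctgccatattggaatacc
The first 4 stretches hold several A or T runs of 6 or more, while the His4r promoter stretch and both coding stretches hold none.

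His2Av and His3.3B had peaks in the optimal IDR (irreproducible discovery rate) list of 7637 peaks, 1 and 2 peaks, and His3.3A and His4r had none. Across all protein-coding genes, 26.0% had an IDR peak by the same rule, so 2 of 4 genes is a small count that allows no statement about histone variants as a class. In the pooled list of 30000 peaks all 4 genes had at least 1 peak, 9 in all (6974 of all 13945 genes, 50%, were called). Replicate 3 had 11 peaks at all 4 genes (52.6% of all genes called), and replicate 1 had 6 peaks at 3 genes (49.6%), with none at His3.3A. The IDR list equals the 7637 strongest peaks of the pooled list, each with an identical position and signal. Being in it therefore means having a pooled signal of at least 149.8. Signals are the authors' own values on an unstated scale, so they are compared only within a list. Read depth is unknown, since the lists give no read counts.

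**Figure D1:**
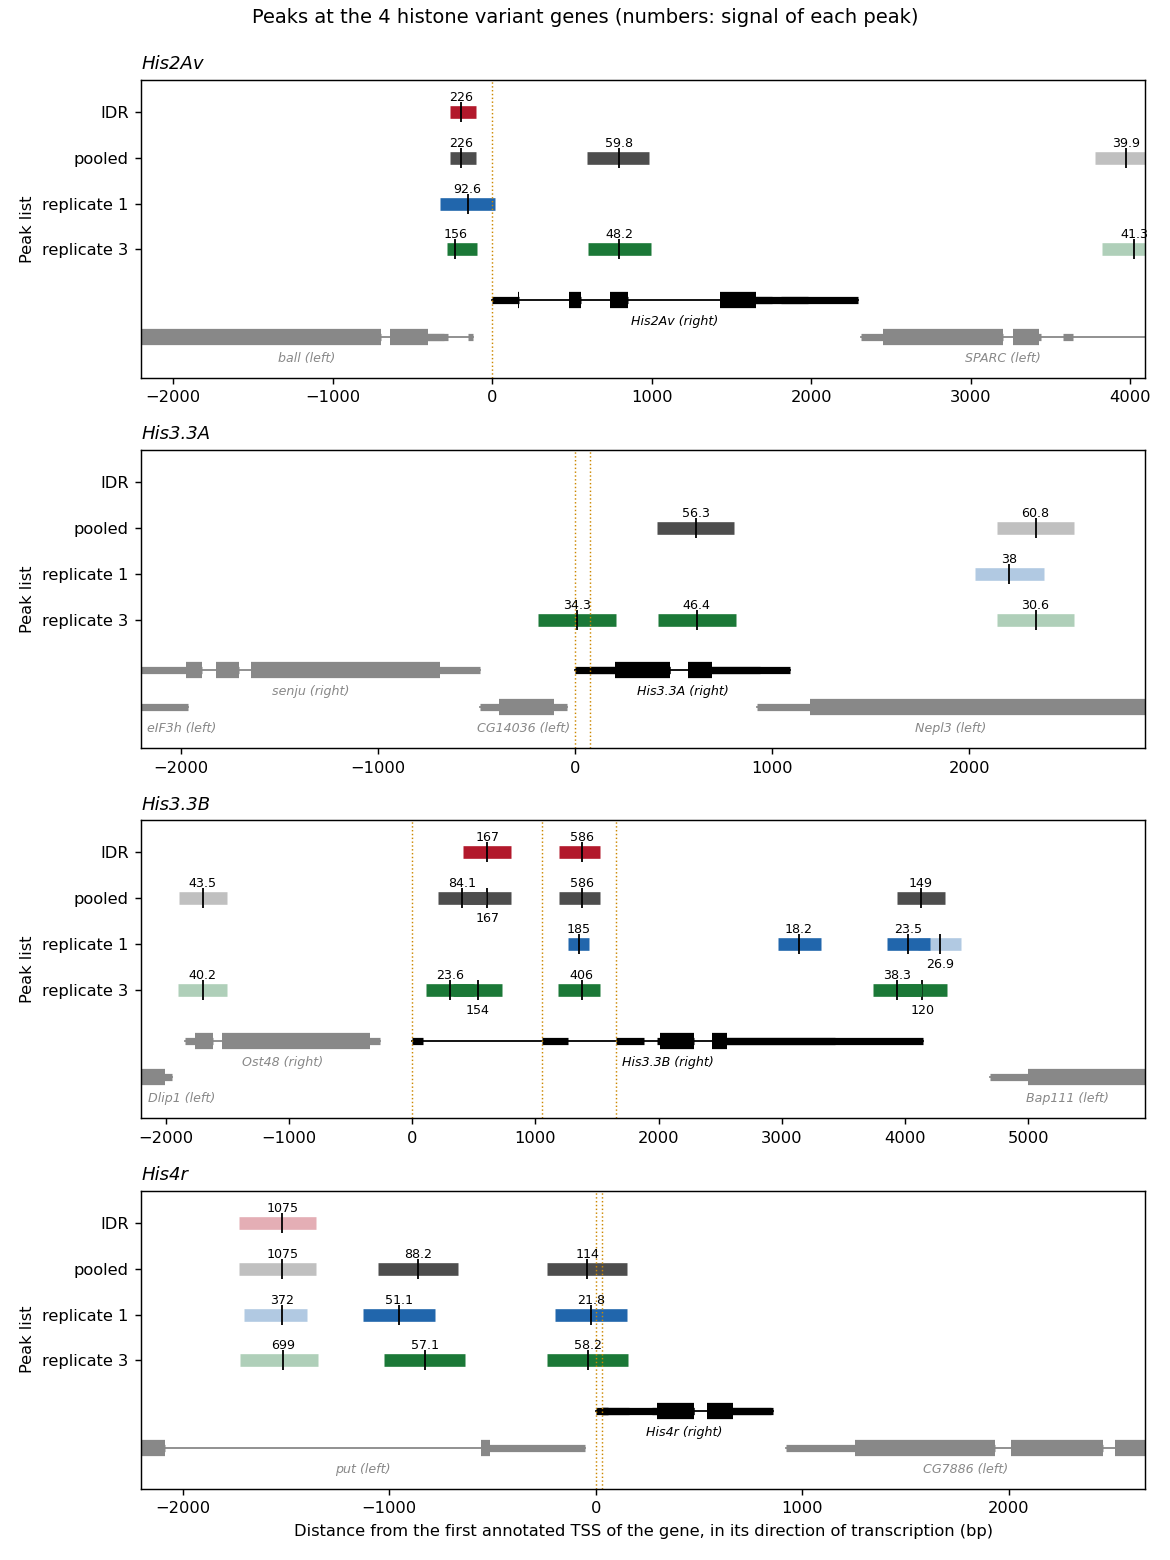
Map of the peaks at each gene. The x axis is the distance in bp from the first annotated TSS along transcription, rows are the 4 peak lists, bars span the peaks, black ticks are summits and numbers are signals; pale bars lie outside the rule, dotted lines are TSSs, thick boxes are coding exons, and "right" or "left" gives the direction of transcription. IDR peaks by the rule are seen at His2Av (226) and His3.3B (167 and 586), and the 1075 peak upstream of His4r lies outside it.

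His3.3B, 1 of the genes for H3.3, had the strongest peak of the 4 genes. It is on the X chromosome (FBgn0004828, X:9152523 to 9156669, minus strand) and has 3 TSSs, the second 1056 bp and the third 1657 bp downstream of the first. The strongest peak (X:9155144 to 9155479) had its summit at 9155295, in an intron between the second and the third TSS and 283 bp upstream of the third. Its signal was 586 in the pooled and IDR lists, 185 in replicate 1 and 406 in replicate 3. Its ranks were 1688 of 7637 IDR peaks, 1793 of 30000 in replicate 1 and 1647 of 30000 in replicate 3. It was thus within the strongest 5.98% of replicate 1 and 5.49% of replicate 3, with summits 24 and 3 bp from the IDR summit. No TSS of another gene lies within 1000 bp of this summit.

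The second IDR peak of His3.3B (X:9155865 to 9156254, summit 9156060) was weak and rested on replicate 3. It lay in the intron after the first exon, 447 bp upstream of the second TSS, with a signal of 167 and rank 6942 of 7637. Replicate 3 had an overlapping peak with signal 154 and rank 5385, with its summit 79 bp away. Replicate 1 had no peak that overlapped it by at least 50% of the shorter peak, nor by 1 bp. By the 50% rule, 448 of the 7637 IDR peaks (5.87%) overlapped a peak in replicate 3 alone and 6958 (91.1%) in both replicates. A neighbouring pooled peak, which shares less than 50% of its length with it, had a signal of 84.1 and rank 12559, and it overlaps the 154 peak of replicate 3 as well as a weak one there (23.6).

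Another His3.3B peak missed the IDR list by little. Its summit (X:9152540) lay in the 3′ UTR, 4129 bp downstream of the first TSS of this gene of 4147 bp. Its pooled signal was 148.9, against 149.8 for the weakest IDR peak, and its pooled rank was 7690. In replicate 3 the strongest overlapping peak had a signal of 120 and rank 6852, and a weaker one had 38.3 and rank 19724. In replicate 1 the strongest overlapping peak had a signal of 26.9, and its summit lay past the gene end and outside the rule. A weaker peak there (23.5) lay inside it. The ranks of the replicate 1 peaks, 13496 and 16515, thus lay between those of the replicate 3 peaks. Replicate 1 alone had a peak of signal 18.2 and rank 25197 in the same 3′ UTR.

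His2Av had 1 IDR peak, shared with a divergent neighbour. The gene (FBgn0001197, 3R:26866929 to 26869220, plus strand) has 1 TSS. Its TSS lies 122 bp from the first TSS of ball on the opposite strand, which codes for a kinase of nucleosomal histones. The peak (3R:26866662 to 26866830) had its summit at 26866736, 193 bp upstream of the His2Av TSS. The ball gene has 2 TSSs, and the summit lay 71 bp downstream of the first, in an intron of transcripts that start there, and 111 bp upstream of the second. The signal of the peak was 226 in the pooled and IDR lists, 92.6 in replicate 1 and 156 in replicate 3, and its ranks were 5260 of 7637, 4035 of 30000 and 5306 of 30000. The summits of replicates 1 and 3 lay on opposite sides of the IDR summit, 39 and 38 bp away, and 77 bp apart. The summit is nearer to either ball TSS than to that of His2Av, so position does not show which gene the peak belongs to. The log2 ratio of its rank in replicate 1 to that in replicate 3 was -0.40, at the lower quartile (-0.39) of the 6958 IDR peaks found in both replicates. It was 0.12 at the strongest His3.3B peak, inside the quartiles (-0.39 to 0.38).

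A second His2Av peak was found in replicate 3 and the pooled list alone. Its pooled summit (3R:26867721) lay in a coding exon 792 bp downstream of the TSS, with a signal of 59.8 and rank 16891 of 30000. In replicate 3 its signal was 48.2 and its summit lay 4 bp away. His3.3A had a peak of the same kind, described next.

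His3.3A, the other H3.3 gene, had weak peaks and none in replicate 1. The gene (FBgn0014857, 2L:5055058 to 5056149, plus strand) has 2 TSSs 76 bp apart, and the TSS of CG14036 lies 42 bp away on the opposite strand. The single pooled peak (2L:5055477 to 5055866) had a signal of 56.3 and rank 17866. Its summit lay in a coding exon, 538 bp downstream of the second TSS. Replicate 3 had a matching peak (46.4, rank 16541) with its summit 4 bp away. Replicate 3 alone also had a peak at the TSS itself, with its summit 12 bp downstream and a signal of 34.3 (rank 21715). The nearest IDR summit lay 2.62 kb upstream in an eIF3h intron, with a signal of 485, and within 1000 bp of TSSs of eIF3h and senju rather than of His3.3A.

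His4r showed a weak peak between its TSS and that of put, and a stronger one outside the rule. The gene (FBgn0013981, 3R:14625755 to 14626614, plus strand) has 2 TSSs 33 bp apart and lies 52 bp from the TSS of put, which codes for a type II receptor of the BMP and activin pathways. A pooled peak had its summit 40 bp upstream of the first TSS, in the DNA between the genes, with a signal of 114 and rank 9681. It was seen in replicate 1 (21.8, rank 18674) and replicate 3 (58.2, rank 13479), with summits within 18 bp. The pooled summit (3R:14625715) and that of replicate 3 (14625716) lay nearer to the put TSS (14625703) than to His4r. The replicate 1 summit (14625733) lay nearer to His4r, so position does not show which gene this peak belongs to. A pooled peak in a put intron, 861 bp upstream, had a signal of 88.2 and rank 12061, with signals of 51.1 in replicate 1 and 57.1 in replicate 3. In replicate 1 its rank was 6979, better than 7637, and in replicate 3 it was 13703. The order of this pair of peaks thus differed between replicates: the intron peak was the stronger in replicate 1, and both had nearly the same signal in replicate 3. Farther upstream in the same put intron lay an IDR peak with a signal of 1075 and rank 571. Its summit (3R:14624238) was 1517 bp upstream of His4r, against the limit of 1000 bp, and no TSS lay within 1000 bp of it. It ranked 565 in replicate 1 and 614 in replicate 3, so it was stronger than every peak inside the rule. The summit nearest to the limit on its inner side was that of replicate 1 at 953 bp.

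**Figure D2:**
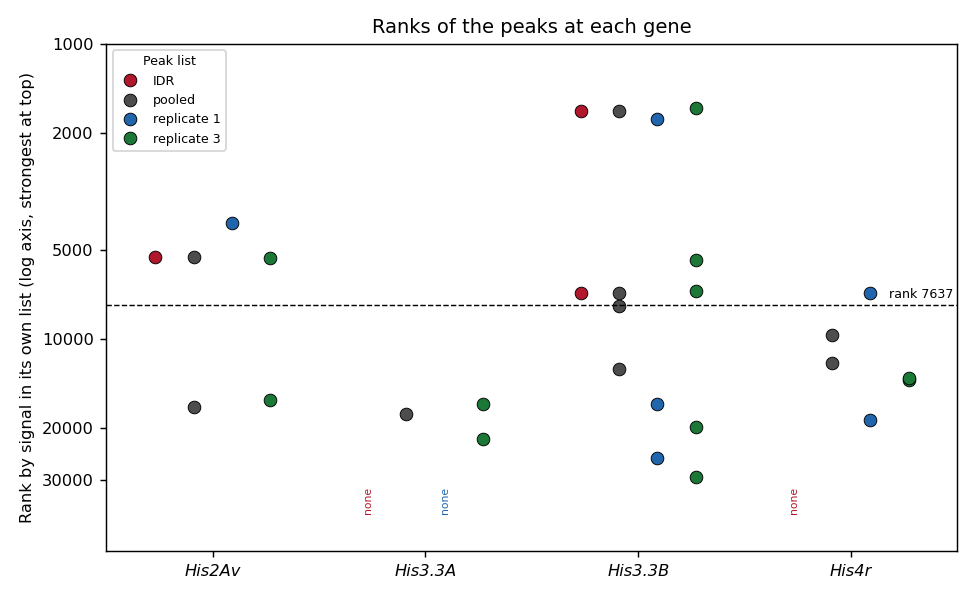
Rank by signal of every peak at the 4 genes (y axis, log scale, strongest at top) for each gene (x axis), with 1 point per peak coloured by list; the dashed line is the size of the IDR list, 7637, and "none" marks a list without a peak. The strongest His3.3B peak ranks between 1647 and 1793 in every list, whereas the best rank at His3.3A is 16541.

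The nearest IDR summits to a TSS lay at 193 bp for His2Av, 283 bp for His3.3B, 1517 bp for His4r and 2623 bp for His3.3A. Over all 13945 protein-coding genes the median distance was 6407 bp, with quartiles of 1499 and 16552 bp. By this measure 10.6%, 14.3%, 25.1% and 31.8% of genes had an IDR summit as near as His2Av, His3.3B, His4r and His3.3A. All 4 distances were below the median, but they come from the same IDR list as the counts above and were not tested. The nearest summits to His4r and His3.3A lay in introns of put and eIF3h. His2Av, His4r and His3.3A each have a divergent neighbour with a TSS within 122 bp of their own.

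All 3 IDR summits at these genes lay in introns, and they were richer in A and T than their flanks. Within 50 bp of the summit A + T was 76.2% at the strongest His3.3B peak, against 56.4% in windows centred 200 bp to each side. It was 66.3% at the weaker His3.3B peak, against 59.4% in its flanks, and 66.3% at the His2Av peak, against 46.0%. The differences of 19.8, 6.93 and 20.3 percentage points average 15.7 ± 7.58 (SD, n = 3 peaks). This SD is a spread over peaks, 2 of them in the same gene, and not over samples. Over all 7637 IDR peaks the median difference was 15.8 points (quartiles 8.42 and 21.8), and the summit was higher in 91.3%. The weaker His3.3B peak was thus below the lower quartile, and the other pair lay between the median and the upper quartile. The longest A or T run had 15 bases at the strongest His3.3B peak and 14 at each of the other IDR peaks, against a median of 11 and an upper quartile of 14 in all IDR peaks.

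Summits in coding exons had a different composition. A + T was 39.6% at the His2Av coding summit, 16.3 points below its flanks, and 42.6% at the His3.3A coding summit, 3.96 points above its flanks. Neither had a peak in replicate 1. In the whole pooled list, 1466 of 30000 summits (4.89%) lay in coding exons, with a median A + T of 44.6% against 63.4% for the 28534 other summits. Of the coding summits 30.6% had an overlapping peak in replicate 1 and 61.1% in replicate 3, against 57.5% and 82.04% of the others. The median signal was 41.6 in coding exons and 71.9 elsewhere. The His2Av and His3.3A coding summits were thus somewhat lower in A + T and higher in signal than the median coding summit. The IDR list holds 21 coding summits of 7637 (0.275%), none of them at these genes. The His4r promoter summit was also low in A + T, with 49.5% against 61.9% in its flanks.

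**Figure D3:**
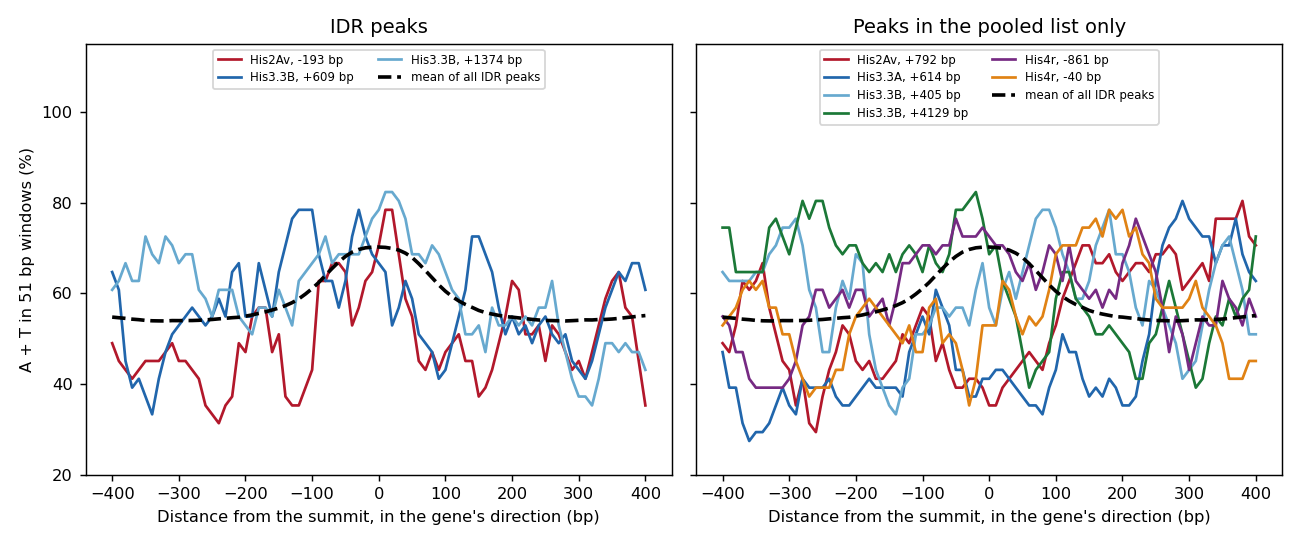
A + T content in 51 bp windows (y axis, %) by distance from the summit (x axis, bp, along the histone gene) for the 3 IDR peaks (left) and the 6 peaks of the pooled list outside the IDR list (right), each named by its distance from the first TSS of the gene; the dashed line is the mean of all 7637 IDR peaks. The strongest His3.3B and the His2Av IDR peaks rise at the summit as the mean does, while the coding summits of His2Av and His3.3A and the His4r promoter summit do not.

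Short motifs were looked for at these peaks. Both strands of the 300 bp around each IDR summit were searched for TATCGATA (the DNA replication-related element), GAGAG (GAGA factor), the E boxes CAGCTG and CACGTG, the short word CACTG, the TATA-like TATAAA and the run AAAAAAAA, with overlapping matches counted. CACTG and TATAAA were each found once at both His3.3B IDR peaks, and these occur in 60.3% and 48.8% of all IDR windows. The weaker His3.3B peak also held GAGAG once (31.8% of windows). The His2Av peak held 2 matches to AAAAAAAA (24.7% of windows) and none of the other 6. TATCGATA was in none of the 3 windows (2.003% of all) and in none of the 8 promoters of these genes, taken from 250 bp before to 50 bp after each TSS (7.98% of 19607 promoters). The shorter CGATA, chosen after these letters were seen, is in 45.7% of promoters and 30.1% of IDR windows. It occurred 3 times in the promoters of His2Av and of His4r at either TSS, and 11.2% of promoters hold at least 3. It occurred 2 times in the His3.3A promoter at either TSS, and in His3.3B once at the third TSS and not at the others. The summit windows at His2Av and His4r overlap these promoters, so the 3 matches in each are not a separate count. Neither His3.3B IDR window held it. A match gives letters in a window, and no binding by a factor was measured.

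The sequence of the 4 genes can be placed uniquely, whereas that of the histone cluster cannot. Of all stretches of 50 bases in the genes with 1000 bp to each side, 99.98% (16191 of 16195) occur once in the genome when both strands are counted. The value was 100% at His2Av, His3.3A and His4r, and 99.9% at His3.3B. All stretches in the 9 pooled peaks of these genes were unique, and so were those in their coding exons. This holds although the coding sequences resemble each other: those of His3.3A and His3.3B, both of 408 bases, are identical at 86.0% of bases. Their identity to the 23 His3 genes of the cluster was 80.1% to 80.4% for His3.3A and 78.2% to 78.4% for His3.3B. His4r, with 309 coding bases, was identical to the 22 His4 genes at 83.5% to 83.8% of bases.

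The replication-dependent genes gave the contrast. The 111 genes named His1, His2A, His2B, His3 and His4 span 125 kb (2L:21416953 to 21541681), and only 1.44% of the stretches of 50 bases in this span occur once in the genome. In 103 of the 111 genes no stretch was unique. None of the 4 lists has a summit in this span, and the nearest summit lay 31.6 kb away in the IDR, pooled and replicate 3 lists and 42.5 kb away in replicate 1. Across all IDR peaks 99.96% of stretches were unique, and 7636 of 7637 peaks had at least 50% unique stretches. How reads that match several places were handled was not stated. The absence of peaks in the cluster and a lack of placed reads cannot be told apart.

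**Figure D4:**
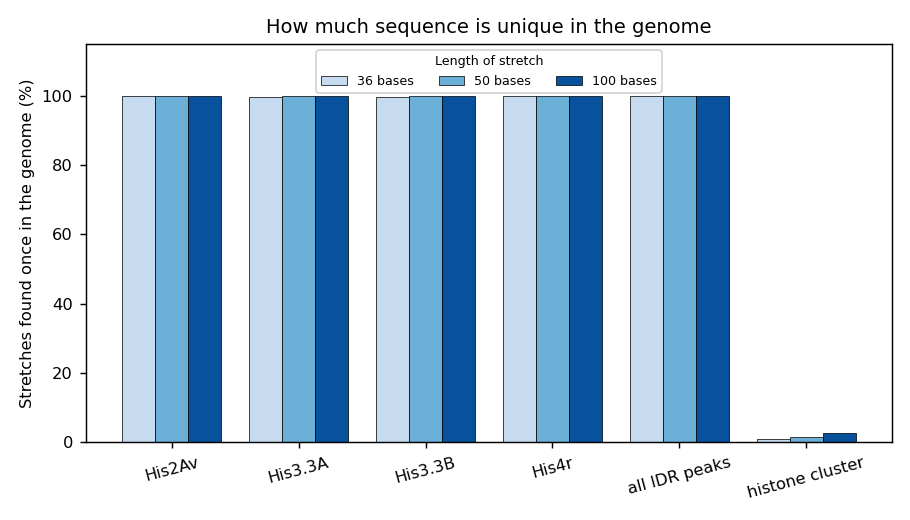
Share of all stretches of 36, 50 or 100 bases that occur once in the genome (y axis, %) for each of the 4 genes with 1000 bp to each side, all IDR peaks and the span of the histone cluster (x axis). The genes and the IDR peaks are at 99.6% or higher at each length and the cluster is at 2.71% or lower.

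Genes that handle these histones were looked up by the same rule. Over 5 lists, 14 of 47 genes had an IDR peak (29.8%), close to the 26.0% of all protein-coding genes, and all 14 had peaks in both replicates, against 84.9% of the strongest peaks of all genes with one. Taking the strongest IDR peak of each gene, 13 of the 14 summits lay upstream of the nearest TSS, against 65.1% of the 3628 protein-coding genes with an IDR peak. A + T was higher than in the flanks at 11 of the 14, against 90.5% of those genes. The median signal was 416 at the 14 genes and 395 at the 3628. With TSS windows alone and no gene body, all 14 kept an IDR peak, as did 3039 of the 3628. The 14 genes are few and come from lists chosen with earlier results of these data known. None of these differences was tested.

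Among genes for H3.3 deposition and the remodelling that goes with it, 5 of 9 had an IDR peak (55.6%, against 26.0% of all protein-coding genes). This count is small and was not tested. Chd1, a chromatin remodeller, had a signal of 741 with its summit 226 bp upstream of a TSS. The H3.3 chaperone gene Daxx had 533, the FACT subunit gene dre4 319, and XNP, the ATRX homologue, 314. The signal at yem, whose product works with Hira, was 286. The XNP peak ranked 8960 in replicate 1 and 2679 in replicate 3, each of 30000 peaks. Hira, which codes for the chaperone of replication-independent H3.3 assembly, had no IDR peak, nor had asf1, Dek and Ssrp. Ssrp, also a FACT subunit gene, had no peak in any of the lists. Hira had 3 pooled peaks and none in replicate 1.

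Among genes of the Domino, Tip60 and related complexes that exchange or modify H2Av, 5 of 18 had an IDR peak. The strongest was at pont, an AAA+ ATPase gene, with a signal of 1430 and rank 301, its summit 138 bp upstream of a TSS. Ino80 had 929, the YEATS domain gene Gas41 684, E(Pc) 442 and the actin gene Act87E 368. The E(Pc) peak ranked 7022 in replicate 1 and 1712 in replicate 3, whereas the pont peak ranked 299 and 303. Arp6, Bap55 and Brd8 were among the 13 without an IDR peak, and so were dom, Tip60 and rept. In the pooled list dom had 1 peak, and Tip60 and rept had 2 each. The share of 27.8% in this list is close to that of all genes.

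Among 7 chaperones of replication-coupled or general nucleosome assembly 1 had an IDR peak (14.3%, against 26.0% of all protein-coding genes), Nasp, with a signal of 154. It ranked 27970 in replicate 1 and 6259 in replicate 3, the widest gap among the 14 listed genes with an IDR peak. Caf1-180 and Caf1-55, which code for CAF-1 subunits, had none. Among 11 genes that act in making replication-dependent histone transcripts, 3 had IDR peaks (27.3%, against the same 26.0%). These were Cpsf100 (501 and 345), wge (391) and mxc (176), which organises the histone locus body. Clamp, Cpsf73 and FLASH had none. The germline and embryonic linker histone gene BigH1 and the centromeric H3 gene cid, also outside the cluster, had no peak in any list.

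By their ranks in both replicates, the peaks most like that of His2Av were at CG14567 and CG9328. The Euclidean distances of log2 rank were 0.05 and 0.06 over the 2 replicates, and 2090 genes with a promoter peak in both replicates were compared. The peak most like the strongest His3.3B peak is shared by CG5131 and GCS2beta, at a distance of 0.08, with ranks 1710 and 1599 in replicates 1 and 3 (2091 genes compared).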

How the data were processed

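The labels name the samples biological replicates 1 and 3, and they form a single group. The 4 peak lists are in narrowPeak format on dm6; replicate lists come from each replicate's alignments and a control, and the pooled list from both, per the deposited readme texts. The deposited signal is the authors' value on an unstated scale. The deposited summit offset was added to the peak start. For the aligner, peak caller and thresholds, the entry is: not given in the sources used here. The control library was not analysed here.

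Gene models were those of Ensembl release 115. Letters were read from the RefSeq release 6 assembly, which has the dm6 coordinates. All positions are 1-based. Overlap meant at least 50% of the shorter peak. Most peaks of a list shared 1 width: 390 bp for 80.8% of pooled peaks, 350 bp for 90.7% in replicate 1 and 396 bp for 80.55% in replicate 3. Peak spans and overlaps thus depend partly on these common widths. No test was run, since 4 genes were chosen with earlier results of these data known, as were the 5 gene lists and the motifs. Named were the 4 genes, genes with a TSS within 1000 bp of their IDR summits, listed genes with an IDR peak and up to 3 without, and the 2 genes closest in rank to each of His2Av and His3.3B. Neighbouring genes were named after their values were seen, and dom, rept, Tip60 and Ssrp were added in the same way. Gene assignment and uniqueness counts were checked on made-up data. Python 3.11.15, NumPy 2.4.6, pandas 2.3.3 and matplotlib 3.10.9 were used.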

Additional observations from a re-analysis of the deposited data

How the results depend on the processing

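His2Av and His3.3B had a peak with a 500 bp window, without the gene body and with any overlap of the peak, as they did at 1000 bp. A 2000 bp window added His4r. Among the stronger 3818 IDR peaks 1 gene remained with 1 peak, His3.3B. With the 7637 strongest peaks of a single replicate in place of the IDR list, 2 to 3 genes had 3 to 4 peaks, with His4r added without replicate 3. Of the 47 listed genes, 11 to 19 had a peak over these settings, 19 without replicate 1 and 14 without replicate 3. The share of all protein-coding genes was 26.0% at 1000 bp, 24.4% at 500 bp, 30.5% at 2000 bp, 21.8% without the gene body, 26.9% with any overlap and 16.0% among those 3818. It was 26.1% without replicate 1 and 24.6% without replicate 3. The mean A + T difference of the 3 IDR summits was 17.3 points in windows of 25 bp to each side and 13.5 points with flanks 150 bp away. Unique stretches made up 99.8% (36 bases) and 100% (100 bases) of the 4 genes, and 1.08% and 2.71% of the histone cluster. Weak peaks at His3.3A and His2Av rest on replicate 3, and without read counts their precision is unknown. No paired analysis was possible because there is a single group and no test.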
